A study of Homo sapiens with 27 samples.

Results

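WM793B, an established human melanoma cell line, was kept at 1% oxygen for 72 h (chronic hypoxia) and compared with the same line kept at 21% oxygen (control), across all genes measured. The 6 arrays were chosen by their titles and treatment labels: 3 chronic hypoxia arrays and 3 control arrays, out of 27 arrays in all. The remaining arrays of the series held the same line under cycling hypoxia, and the prostate cancer line PC-3 and the ovarian cancer line SK-OV-3 under the same oxygen conditions. PC-3 and SK-OV-3 were grown in other media than WM793B, with more serum. RNA levels were measured on Affymetrix Human Genome U133 Plus 2.0 arrays, on which a gene is read by 1 or more groups of short probes (probe sets). The cells of both groups were early passages of 1 purchased line, grown in the same medium with 2% serum in glass plates. The labels name no introduced gene and no drug, and give oxygen as the difference between the groups. The labels call the 3 arrays of a group biological replicates. Whether each replicate had its own exposure to hypoxia is not given in the sources used here, and p-values measure the spread between these arrays.

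Cells sense oxygen through prolyl hydroxylases, which need it to mark the alpha subunits of the hypoxia-inducible factors (HIF) for degradation. At low oxygen these subunits accumulate, pair with ARNT and bind DNA at genes for glucose uptake, glycolysis, blood vessel growth and the removal of mitochondria. Cells also save energy at low oxygen, by slowing translation through the kinase PERK and by slowing entry into DNA synthesis. PERK activity also raises the transcription factor ATF4.

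All values are log2 values after GC-RMA, so a difference of 1 is a 2-fold change. The lowest value of the table was 2.28 and the highest 15.5. A log2 value of 5 was chosen here as a working noise level, and the folds given below as bounds and the counts of genes at noise rest on it. By that level 63.6% of all probe sets on the array were at or below noise on all 6 arrays, and by a linear value of 5, which is 2.32 on the log2 scale, 33.8% were. Correlations across all probe sets of the array were 0.996 to 0.998 among the control arrays and 0.997 between chronic replicates 1 and 2. Chronic replicate 3 correlated at 0.994 with each of the others. It stood apart in a set of genes: 220 genes were at least 2-fold higher on it than on both other chronic arrays, and 51 genes at least 2-fold lower. Mitotic genes were prominent among the former, and results that touch them are given with and without that array.

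The labelled cell type was checked against melanocyte genes. The transcription factors of the lineage were present: SOX10 read 10.31 to 10.49 and MITF 8.21 to 8.51 on the control arrays, and S100B read 11.20 to 11.53. The pigment genes were not. TYR, TYRP1, PMEL, MLANA, GPR143, SLC45A2 and TRPM1 stayed between 2.28 and 2.55 on all 6 arrays, at or near the floor of the table. Markers of other cell types were at or near noise. The leukocyte genes CD3E, CD14 and ITGAM read 2.28 on all 6 arrays, 9 of 10 epithelial markers were at noise on all arrays, and both tested endothelial markers were as well. The exception among the epithelial markers was KRT18, with a mean of 4.83 under hypoxia and 4.24 in the control, and the one epithelial marker that passed the test was KRT8 (log2 difference 0.47, both means below 5).

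Which genes changed was asked with limma's moderated test on the 6 arrays. Of 19791 probe sets that passed a filter on variation over the series, 7140 (36.1%) had an adjusted p under 0.05. Of these 3268 (16.5%) were higher under hypoxia and 3872 (19.6%) lower. With a change of at least 2-fold as a further condition, 2455 probe sets (12.4%) were called, 1078 higher (5.45%) and 1377 lower (6.96%). A gene was then read by its brightest filtered probe set, which gave 10021 genes. By this reading 1624 genes (16.2%) rose and 2191 (21.9%) fell at an adjusted p under 0.05, and these shares are the background for the gene groups that follow. At 2-fold 448 genes (4.47%) were called higher and 733 (7.31%) lower. The median log2 difference over all genes was -0.024. The 3 chronic values lay above all 3 control values in 23% of the genes and below them in 29.5%.

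**Figure D1:**
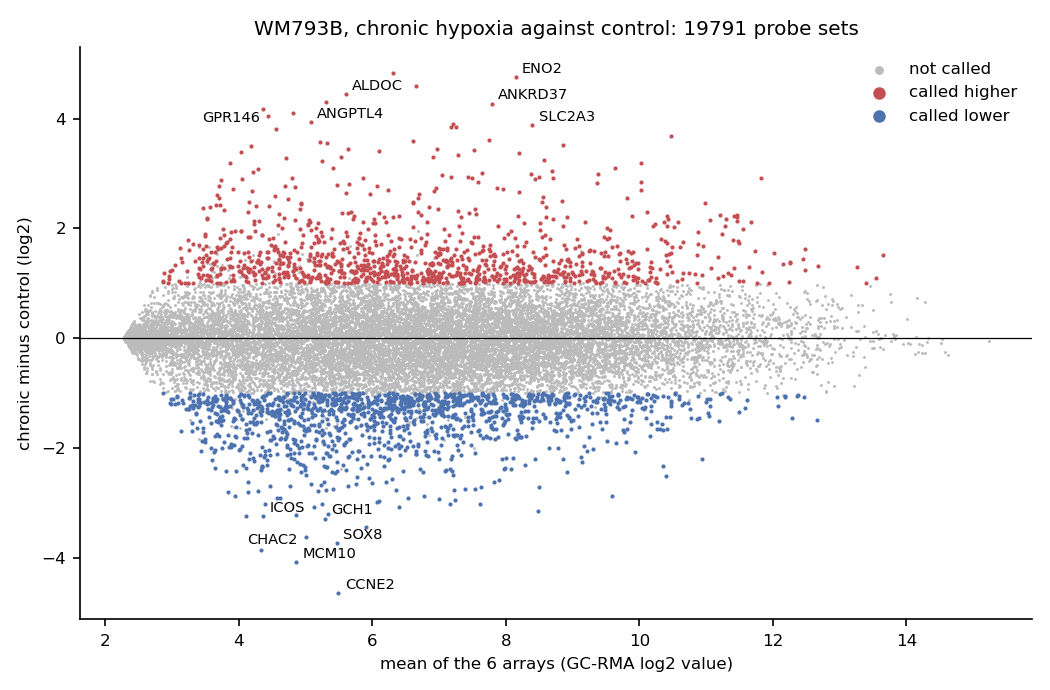
Each point is 1 of 19791 probe sets, with its mean over the 6 WM793B arrays (x axis, GC-RMA log2 value) against the difference of chronic hypoxia minus control (y axis, log2). Red points were called higher (1078), blue points lower (1377) and grey points were not called. Names mark the 6 genes with the largest rise and the 6 with the largest fall among genes whose higher group lay above the noise level, read by the brightest probe set.

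The gene with the largest rise was ENO2, the neuronal isoform of the glycolytic enzyme enolase. It read 5.73, 5.57 and 6.02 on the control arrays and 10.72, 10.62 and 10.23 on the chronic arrays. The groups lay far apart, and the log2 difference was 4.75 (SE 0.18, adjusted p = 0.000496), a 26.9-fold rise. ALDOC, the brain isoform of aldolase, went from 3.32, 3.16 and 3.67 to 7.69, 7.86 and 7.94. Since its control values were under the noise level, the rise is given as a bound, at least 7.11-fold (log2 difference 4.45, adjusted p = 0.000439). ANKRD37, a known HIF target of little studied function, read 4.96, 5.98 and 6.01 and then 9.77, 9.81 and 10.19. Every chronic value lay well above the highest control value (log2 difference 4.27, SE 0.33, adjusted p = 0.00155). Among the 12 largest rises, ranked by fitted log2 difference, were also the glucose transporter SLC2A3 (log2 difference 3.88), the stress factor DDIT3 (3.51), the lipoprotein receptor VLDLR (3.45) and the glycoprotein hormone STC1 (3.37). The other 5 had control values at noise and are given as bounds: the lipase inhibitor ANGPTL4 rose at least 4.13-fold, MIR210HG, the host transcript of the hypoxia-induced microRNA miR-210, at least 4.00-fold, and the copper-carrying ferroxidase CP at least 5.12-fold. GPR146, a G protein-coupled receptor, rose at least 2.76-fold and CFAP96 at least 1.65-fold, both from control values at 2.30 to 2.41. CP differed most among replicates, at 7.86, 8.13 and 6.08 on the chronic arrays. SLC2A3 was read by a probe set that may share sequence with its near copy SLC2A14, and its 2 further probe sets rose as well.

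Promoters of the 3 genes at the top of that order are shown because each holds the core letters that HIF binds, ACGTG or GCGTG on either strand, which stand in capitals. The sequences are RefSeq's, on GRCh38.p14, from 250 bases before the start through the first 50 of the transcript, in the direction of the gene. They lie at chr12:6914330-6914629 (plus strand) for ENO2, chr17:28576846-28577145 (minus strand) for ALDOC and chr4:185396591-185396890 (plus strand) for ANKRD37.
ENO2: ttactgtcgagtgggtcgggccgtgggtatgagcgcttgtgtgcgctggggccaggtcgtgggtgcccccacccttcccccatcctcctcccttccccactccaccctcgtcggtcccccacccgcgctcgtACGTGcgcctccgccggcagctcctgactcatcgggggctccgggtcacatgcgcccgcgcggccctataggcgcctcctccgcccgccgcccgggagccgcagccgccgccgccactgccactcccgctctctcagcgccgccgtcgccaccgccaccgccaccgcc
ALDOC: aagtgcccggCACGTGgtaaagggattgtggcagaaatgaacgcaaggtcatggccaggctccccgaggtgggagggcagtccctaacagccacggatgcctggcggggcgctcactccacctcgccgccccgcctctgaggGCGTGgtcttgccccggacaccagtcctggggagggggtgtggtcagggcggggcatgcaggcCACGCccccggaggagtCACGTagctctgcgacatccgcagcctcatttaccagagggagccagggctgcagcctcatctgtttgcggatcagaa
ANKRD37: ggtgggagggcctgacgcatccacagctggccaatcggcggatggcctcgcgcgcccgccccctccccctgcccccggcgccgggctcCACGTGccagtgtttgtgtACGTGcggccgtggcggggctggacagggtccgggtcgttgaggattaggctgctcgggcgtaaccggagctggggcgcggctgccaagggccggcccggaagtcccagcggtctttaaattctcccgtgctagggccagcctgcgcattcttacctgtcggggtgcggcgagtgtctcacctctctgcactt
ENO2 held 1 match, ALDOC 5 and ANKRD37 3, where CACGTG counts on both strands. Such short letters are common. Of the 10021 genes tested, 8127 had a promoter in the RefSeq table and 62.8% of these held a match. Among the genes called higher it was 67.8% of 367, and among those called lower 61.4% of 577, so that the share in the genes called higher was close to that in all genes. In the gene lists described below it was 78.6% of 14 HIF target and 70.6% of 17 glycolysis promoters. It was 75% of 32 replication and 65.2% of 23 mitosis promoters. The letters TTTGAA, known as the cell cycle homology region, stood in 10.1% of the promoters of all genes, 10.1% of those called higher and 11.1% of those called lower.

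HIF's own subunits and the enzymes that sense oxygen were tested for 5 genes. HIF1A, the best known alpha subunit, read 13.48, 13.41 and 13.46 in the control and 13.58, 13.54 and 13.56 under hypoxia. It was among the brightest transcripts of the cells, and its log2 difference of 0.11 (95% interval -0.00022 to 0.22) did not pass the test (adjusted p = 0.108). EPAS1, the alpha subunit of HIF-2, rose from 9.93, 9.83 and 9.52 to 11.03, 10.90 and 10.40 (log2 difference 1.01, SE 0.21, adjusted p = 0.018). ARNT, the partner of both, rose by 1.02, and EGLN1, the oxygen-sensing hydroxylase, by 0.77. The adjusted p was 0.00129 for ARNT and 0.00491 for EGLN1, and in both genes the groups did not overlap.

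Of 19 tested HIF target genes 16 rose and none fell, with a median log2 difference of 2.14. Several of them, such as ANKRD37, INSIG2, PPFIA4 and TMEM45A, are in the paper's own selection of hypoxia-regulated genes from these arrays. The count and the median are therefore not independent of these data. The same holds for some of the glycolysis genes and secreted factors below. BNIP3, a receptor for the removal of mitochondria, went from 10.30, 10.28 and 10.49 to 13.24, 13.42 and 13.17. The rise of 2.91 (SE 0.10, adjusted p = 0.000418) made it one of the brightest transcripts of hypoxic WM793B cells. PPFIA4, a liprin with control values at noise, rose at least 3.64-fold, and HILPDA, which coats lipid droplets, rose by 2.84 on the log2 scale. The targets that did not pass were CA12 (-0.04), which lay at noise, DDIT4 (0.53) and BHLHE40 (1.59). DDIT4, an inhibitor of the growth kinase mTOR, read 11.77, 11.71 and 11.80 in the control and 11.90, 11.90 and 13.08 under hypoxia. BHLHE40, a repressor of the clock, read 8.29, 8.30 and 8.43 and then 9.27, 9.16 and 11.36. Both were thus set apart by chronic replicate 3, and without it BHLHE40 passed (log2 difference 0.88, adjusted p = 0.00357).

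Glucose uptake and glycolysis rose nearly throughout. Of 18 tested genes 16 rose and none fell, at a median of 1.35. The transporter SLC2A1 went from 6.22, 6.08 and 6.62 to 8.60, 8.55 and 8.63 (log2 difference 2.29, SE 0.15, adjusted p = 0.00107). PFKFB4, which makes the activator of phosphofructokinase, rose by 3.33, GPI by 1.66, ALDOA by 1.39, PGK1 by 1.30, TPI1 by 1.03 and PKM by 0.67. ENO1, the common enolase, did not pass (0.61), nor did PFKM, the muscle isoform of phosphofructokinase (-0.04). The ENO1 probe set was dim, with means of 5.58 in the control and 6.19 under hypoxia, so the reading of ENO1 is uncertain. PFKP, the platelet isoform of phosphofructokinase, rose by 1.77 and PFKL, the liver isoform, by 1.07. Of the 18 genes 12 were called at 2-fold, first among them the tissue-restricted isoforms ENO2 and ALDOC. HK2, the inducible hexokinase, is left as uncertain: its brightest probe set rose by 2.23, but its 2 further probe sets fell.

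**Figure D2:**
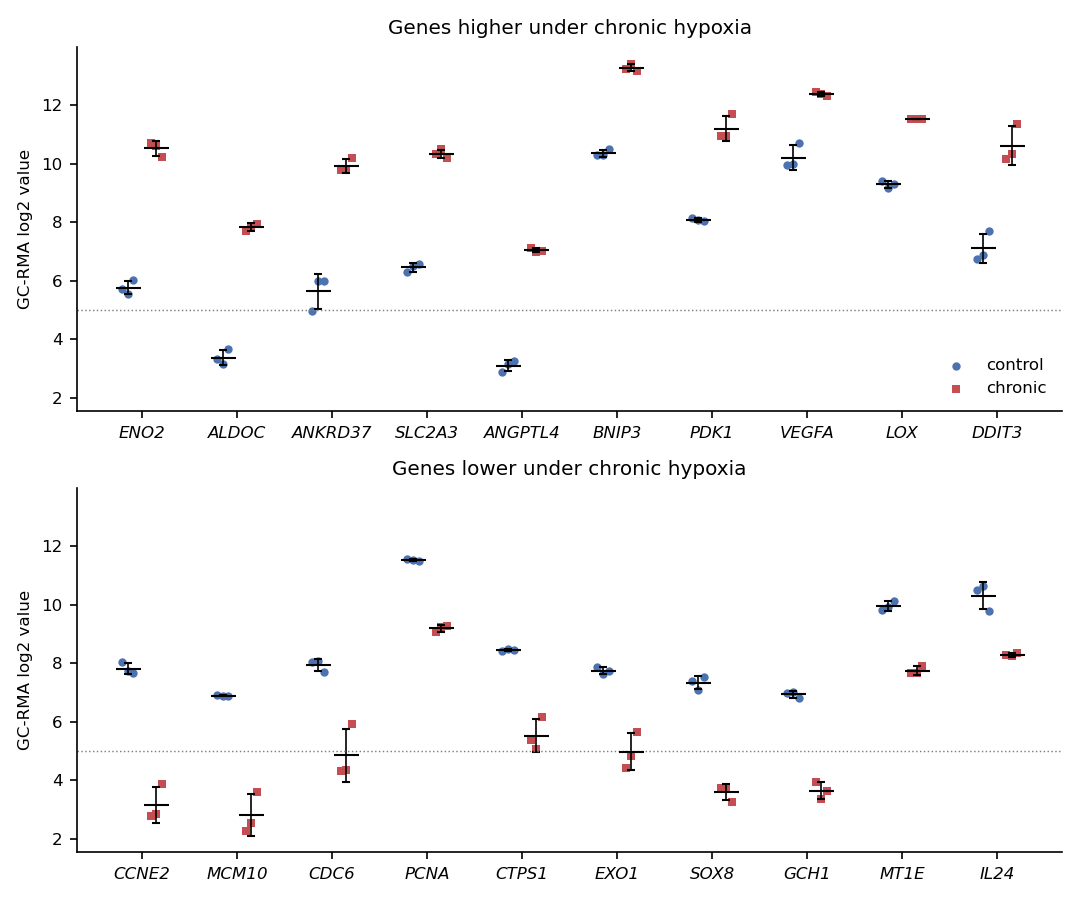
GC-RMA log2 values (y axis) of 10 genes higher and 10 genes lower under chronic hypoxia in WM793B, with control arrays as blue circles and chronic arrays as red squares, replicates 1 to 3 from left to right. Bars give the mean and SD of 3 arrays, and the dotted line is the noise level of 5. The groups do not overlap in any of the 20 genes, many of which were chosen by a rule that required this. Over all genes tested, the chronic values lay above all control values in 23% and below them in 29.5%. CCNE2, MCM10, CDC6, CTPS1 and EXO1 are higher on chronic replicate 3 than on the other chronic arrays.

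Mitochondrial genes moved less, and mostly down. PDK1, the kinase that shuts pyruvate out of the citric acid cycle, rose from 8.14, 8.07 and 8.03 to 10.93, 10.94 and 11.68 (log2 difference 3.10, SE 0.22, adjusted p = 0.00133). It was the only riser among 17 genes of pyruvate dehydrogenase control and the citric acid cycle, where 6 fell, led by OGDH (-1.08), SDHC (-0.70) and DLD (-0.54). The 6 falls became 3 without the variation filter, and the 1 rise became 3 in the fit to all 27 arrays. Without the filter the adjustment runs over 54613 probe sets, and a list can hold other probe sets and more genes. The share of all genes that passed without it was not counted, so such counts, here and below, have no background beside them. Of 17 respiratory chain genes 10 fell and 1 rose, at a median of -0.49, and 3 of the 17 were at noise on all arrays. The complex I subunit NDUFS1 fell by 1.20 (7.54, 7.63 and 7.73 to 6.48, 6.59 and 6.22), HIGD1A, a small assembly factor, by 0.96, and CYCS, cytochrome c, by 0.86. The riser was LONP1 (0.80), the mitochondrial protease that trims cytochrome oxidase subunits. The falls in this list numbered 6 with the replicate number as a block and 13 without the variation filter. Of 13 mitophagy and autophagy genes 8 rose and 1 fell. Besides BNIP3 they were led by BNIP3L (2.20) and ATG14 (1.03), and FUNDC1 fell by 0.35. The 8 rises became 5 without the variation filter. Glycogen metabolism rose in 6 of 8 genes, among them GBE1, the branching enzyme (1.53), PPP1R3B, which brings phosphatase to glycogen (1.54), and the synthase GYS1 (1.10). None of the 6 tested carbonic anhydrases and pH transporters passed, nor did any at an unadjusted p except 1 that was lower, and 3 of them were at noise on all arrays. CA9 was not among them, since it had no probe set of 1 gene symbol. The paper lists it as raised by chronic hypoxia in WM793B.

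Secreted factors of the hypoxic response rose in 8 of 15 genes, at a median of 0.73. VEGFA, the main growth factor of blood vessels, went from 9.96, 9.97 and 10.70 to 12.44, 12.37 and 12.31, a rise of 2.17 (SE 0.22, adjusted p = 0.00286), and its 3 further probe sets rose too. STC1, ANGPTL4, ANG (at least 2.22-fold) and ADM, a peptide that widens vessels (at least 3.44-fold), rose with it. VEGFC (0.29), FGF2 (-0.34), PGF (-0.31) and ANGPT1 (-0.63) did not pass. The enzymes that hydroxylate and cross-link collagen rose in 9 of 12 genes. LOX, a lysyl oxidase, read 9.40, 9.18 and 9.29 and then 11.53, 11.52 and 11.52, the chronic values being nearly equal (log2 difference 2.23, SE 0.07, adjusted p = 0.000402). The prolyl hydroxylase P4HA1 rose by 2.04 and the lysyl hydroxylase PLOD1 by 2.05, while LOXL1 and P4HA3 lay at noise and PLOD3 did not pass (-0.05). The collagens and matrix proteins themselves changed less: 6 of 24 rose, led by COL5A1 (1.27), COL6A2 (0.92) and FN1 (0.80), and LAMC1 fell by 0.67.

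Genes of the ATF4 pathway moved in both directions. Of 22 tested 10 rose and 3 fell, at a median of 0.55. ATF4 itself went from 11.02, 10.89 and 11.09 to 12.29, 12.36 and 12.25 (log2 difference 1.30, SE 0.07, adjusted p = 0.000813). DDIT3, which encodes the stress factor CHOP, read 6.75, 6.88 and 7.69 and then 10.15, 10.34 and 11.36, the highest value lying on chronic replicate 3. The amino acid transporters SLC3A2 (0.95) and SLC7A5 (0.88) and the phosphatase subunit PPP1R15A (1.02) rose. The serine synthesis enzyme PSAT1 fell, from 10.28, 10.38 and 10.16 to 7.81, 7.75 and 8.49 (log2 difference -2.26, SE 0.22, adjusted p = 0.00257). SHMT2, which passes the carbon of serine on in mitochondria, fell by 0.43, and ASNS (-0.19), PHGDH (-0.15) and CHAC1 (0.57) did not pass. In the endoplasmic reticulum 7 of 18 genes rose and 1 fell. DNAJB9 (1.41), HERPUD1 (1.15) and XBP1 (0.96) led, and the chaperone HSPA5, already at 14.0, rose by 0.66. The 7 rises became 3 without control replicate 1 and 11 in the fit to all 27 arrays.

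DNA replication had the lowest median of the lists. Of 39 tested genes 32 fell and none rose, at a median of -1.60. MCM10, needed to start replication forks, read 6.91, 6.88 and 6.90 in the control and 2.28, 2.56 and 3.62 under hypoxia, which is at least 3.72-fold lower (adjusted p = 0.00207). CDC6, which loads the MCM helicase, fell from 8.03, 8.09 and 7.72 to 4.32, 4.36 and 5.91 (log2 difference -3.08, SE 0.48, adjusted p = 0.00853). PCNA, the sliding clamp, fell from 11.55, 11.54 and 11.48 to 9.07, 9.24 and 9.28, with nearly equal values in each group (log2 difference -2.33, SE 0.07, adjusted p = 0.000402). All 6 subunits of the MCM helicase fell, by 1.42 (MCM7) to 2.77 (MCM4), as did GINS1 to GINS4 and POLE2 (at least 3.17-fold). RFC5 (0.08), RPA2 (-0.18), DBF4 (-0.27), PRIM2 (-0.37), POLD1 (-0.63), LIG1 (-0.77) and RFC2 (-0.94) did not pass, and RFC5 is uncertain, since its 2 further probe sets changed the other way. The mean of the list was 8.13, 8.16 and 7.94 on the control arrays and 6.08, 6.08 and 6.93 on the chronic arrays, so the fall was smaller on chronic replicate 3, and 36 genes fell without it. Without the variation filter, 16 fell, with the share of all genes not counted. RNA came from whole cultures, and fewer cells in S phase cannot be told apart from less RNA per cell. The paper states, without showing the data, that flow cytometry found no cell cycle difference between hypoxic and control samples. Its statement follows results on ovarian cancer cells and does not name the line.

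Genes that feed replication or admit cells to it fell as well. CCNE2, cyclin E2, had the largest fall of all genes: 8.04, 7.72 and 7.68 in the control and 2.80, 2.84 and 3.88 under hypoxia. It was at least 7.03-fold lower (log2 difference -4.64, SE 0.33, adjusted p = 0.0013). Of 20 regulators of G1 and S phase 12 fell, with E2F8 (at least 2.99-fold) and CCNE1 (at least 2.97-fold) next to it, and CDKN1B, the inhibitor p27, was the only riser (0.73). Its relative CDKN1A, the inhibitor p21, fell by 0.94. In nucleotide synthesis 14 of 19 fell and 2 rose. CTPS1, which makes CTP, fell from 8.43, 8.50 and 8.46 to 5.37, 5.08 and 6.16 (log2 difference -2.93, SE 0.29, adjusted p = 0.0026), and RRM2, the regulated subunit of ribonucleotide reductase, fell by 2.08. IMPDH1 and IMPDH2, both of the guanine branch, rose by 0.54 and 0.47. Without control replicate 1, the 14 falls became 9. Of 17 DNA repair and checkpoint genes 12 fell and none rose. EXO1, a nuclease of mismatch repair and resection, fell from 7.87, 7.64 and 7.73 to 4.44, 4.83 and 5.67, and BRCA1 from 7.46, 7.51 and 7.54 to 5.40, 4.87 and 6.30 (log2 difference -1.98, SE 0.37, adjusted p = 0.0149). ATM did not pass (0.14), while ATR fell by 1.14. Without chronic replicate 1, the 12 falls became 7.

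The 12 largest falls of all genes held 6 that act in or around S phase: CCNE2, MCM10, DTL (-3.14), which marks CDT1 for destruction, CDC6, POLE2 and CDC45 (at least 2.11-fold). UHRF1 (-2.95), which carries DNA methylation through replication, and CTPS1 stood beside them. The 4 others were of other kinds. SOX8, a neural crest transcription factor, went from 7.40, 7.09 and 7.52 to 3.75, 3.79 and 3.27, at least 5.04-fold lower (adjusted p = 0.000771). GCH1, the first enzyme of tetrahydrobiopterin synthesis, fell from 6.97, 7.03 and 6.81 to 3.95, 3.37 and 3.64, at least 3.83-fold. CHAC2, which breaks down glutathione, fell at least 3.53-fold, and ICOS, known as a receptor of T cells, fell from 6.04, 6.14 and 5.79 to 2.87, 2.55 and 2.82. SOX8, GCH1 and ICOS were as low on chronic replicate 3 as on the others, unlike the S phase genes.

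Promoters of 3 of these genes are shown because each holds a site letter string of the E2F factors, TTTCGCGC, TTTGGCGC or TTTCCCGC on either strand, in capitals. They are the first 3 in the order of the falls that hold one, after CCNE2, SOX8 and GCH1, which were not matched to the table, and MCM10, CHAC2 and ICOS, which held none. They lie at chr1:212035498-212035797 (plus strand) for DTL, chr17:40287629-40287928 (plus strand) for CDC6 and chr14:49688165-49688464 (minus strand) for POLE2.
DTL: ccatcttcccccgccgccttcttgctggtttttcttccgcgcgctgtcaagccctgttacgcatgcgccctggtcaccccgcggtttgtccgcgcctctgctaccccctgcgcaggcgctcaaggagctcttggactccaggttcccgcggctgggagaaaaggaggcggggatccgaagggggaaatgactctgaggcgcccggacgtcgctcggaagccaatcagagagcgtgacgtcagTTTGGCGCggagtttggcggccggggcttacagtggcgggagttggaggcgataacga
CDC6: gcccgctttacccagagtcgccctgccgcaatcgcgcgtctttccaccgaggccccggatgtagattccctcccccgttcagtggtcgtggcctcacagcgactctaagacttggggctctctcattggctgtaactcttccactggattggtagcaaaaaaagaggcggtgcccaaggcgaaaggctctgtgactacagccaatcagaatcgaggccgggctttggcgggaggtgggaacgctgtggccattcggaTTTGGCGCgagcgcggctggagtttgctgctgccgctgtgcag
POLE2: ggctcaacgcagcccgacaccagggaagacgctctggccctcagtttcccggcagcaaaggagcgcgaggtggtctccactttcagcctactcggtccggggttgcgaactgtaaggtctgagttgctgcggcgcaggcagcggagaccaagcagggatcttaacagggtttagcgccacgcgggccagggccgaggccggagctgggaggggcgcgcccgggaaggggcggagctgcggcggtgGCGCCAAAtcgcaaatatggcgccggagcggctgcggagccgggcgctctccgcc
In each of the 3 the match began at most 8 bases from the annotated start. These letters stood in 4.32% of the promoters of all genes tested, in 3.27% of those of genes called higher and in 9.71% of those of genes called lower. In the replication list it was 50% (16 of 32 promoters), and in the mitosis list 13% (3 of 23). The letters TTTGAA gave the opposite order, 3.12% of the replication promoters (1 of 32) and 73.9% of the mitosis promoters (17 of 23). These are descriptions of letters in a window, with no test.

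Mitosis genes did not follow replication genes on every array. Of 28 tested genes none passed by limma's adjusted p, and 1 had an unadjusted p under 0.05. The mean of the list was 9.36, 9.36 and 9.41 on the control arrays, 8.38 and 8.35 on chronic replicates 1 and 2, and 9.76 on chronic replicate 3. All 28 genes lay below every control array on both chronic replicates 1 and 2, and 23 of the 28 lay above every control array on chronic replicate 3. CDK1, the mitotic kinase, read 11.12, 11.10 and 11.15 and then 9.76, 9.88 and 11.29. KIF11, a spindle motor, read 9.26, 9.20 and 9.26 and then 7.60, 7.60 and 8.99, and MKI67, the source of the Ki-67 proliferation marker, 8.05, 8.17 and 7.98 and then 7.65, 7.57 and 9.03. All 28 were at least 2-fold higher on chronic replicate 3 than on both other chronic arrays, whereas this held for 12 of 39 replication genes, 2 of 19 HIF targets and none of the 18 glycolysis genes. Without chronic replicate 3, 26 of the 28 mitosis genes fell at a median of -0.98, in a fit in which 22.4% of all genes fell and 17.5% rose. That fit rests on 2 chronic arrays. In the fit to all 27 arrays 11 of the 28 fell, and the share of all genes that fell in it was not counted. HIF targets averaged 10.1, 10.1 and 10.2 on the 3 chronic arrays, and glycolysis genes 10.4, 10.5 and 10.4, so the array that stood apart in mitosis did not in the means of these lists. What set it apart was not tested.

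**Figure D3:**
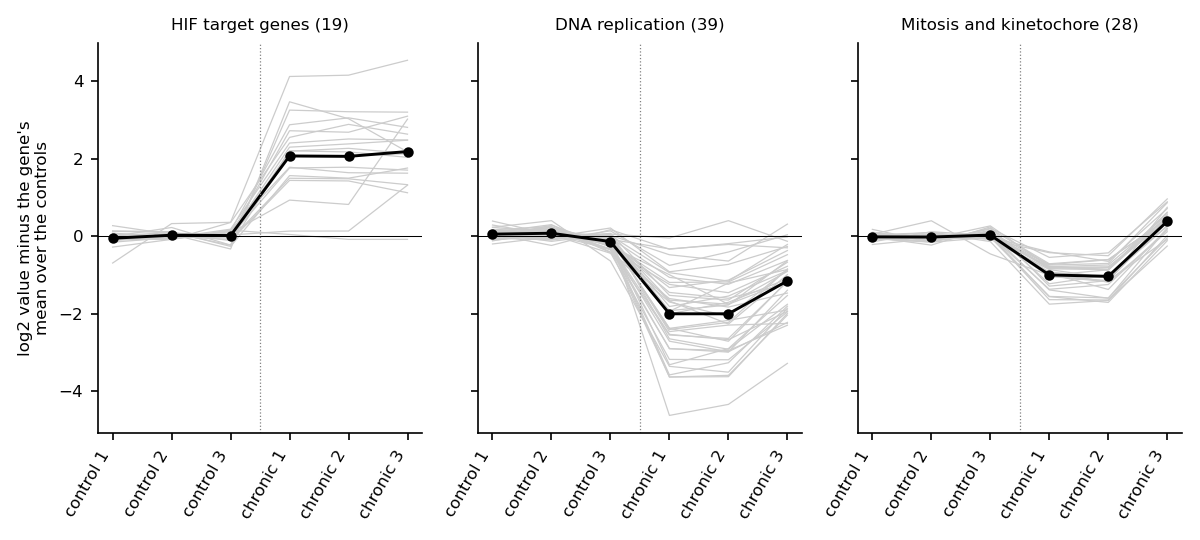
For 3 gene lists, each grey line is 1 gene's log2 value on the 6 WM793B arrays minus its mean over the 3 control arrays (y axis), and the black line is the mean of the list. The mean of the HIF target genes (19) is alike on the 3 chronic arrays, although BHLHE40 and DDIT4 are higher on chronic replicate 3. That of the replication genes (39) is lower on all of them and least so on chronic replicate 3, and that of the mitosis genes (28) is below the controls on chronic replicates 1 and 2 but not on 3. The lines join separate arrays and show no order in time.

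The transcription factors of the melanocyte lineage did not pass the test. MITF read 8.51, 8.41 and 8.21 in the control and 8.56, 8.53 and 8.54 under hypoxia, a log2 difference of 0.17 with a 95% interval of -0.061 to 0.39 (adjusted p = 0.208). For SOX10 it was -0.03, with an interval of -0.40 to 0.34, and for PAX3 0.16, with an interval of -0.24 to 0.56. Of 12 tested genes of the list 1 rose and 3 fell. S100B fell from 11.53, 11.24 and 11.20 to 10.20, 9.99 and 10.24 (log2 difference -1.18, SE 0.12, adjusted p = 0.00283). RAB27A, which tethers pigment granules to the cell's motor, fell by 1.43 and its 4 further probe sets fell too, and the adhesion molecule MCAM fell by 0.90. The riser was KIT, whose values stayed below the noise level. The rises were 3 without chronic replicate 3 and 4 in the fit to all 27 arrays. Of 19 tested genes of the invasive melanoma state 4 rose and 2 fell, at a median of 0.023. AXL, a receptor kinase of that state, read 9.51, 9.39 and 9.48 and then 9.44, 9.33 and 9.61, and the interval of its difference was -0.22 to 0.22. CCN1, a matrix protein, went from 11.13, 11.04 and 11.57 to 12.85, 12.67 and 12.88 (log2 difference 1.55, SE 0.16, adjusted p = 0.00292), and CCN2 (1.24), FN1 and TWIST1 (0.77) rose with it. SOX2 (-1.72) and CDH2 (-0.45) fell. In the MAPK pathway, which drives most melanomas, 4 of 17 rose and 2 fell. BRAF was not among the tested genes, since it had no probe set of 1 gene symbol. The paper gives it as raised by hypoxia in WM793B. SPRY4, a feedback inhibitor, fell from 10.78, 10.82 and 10.89 to 9.12, 9.08 and 9.94, ETV5 fell by 0.57, DUSP6 did not pass (-0.25), and PHLDA1 (0.97) rose. Without chronic replicate 3, 1 rose and 1 fell. MYC did not pass (-0.53, adjusted p = 0.0623).

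**Figure D4:**
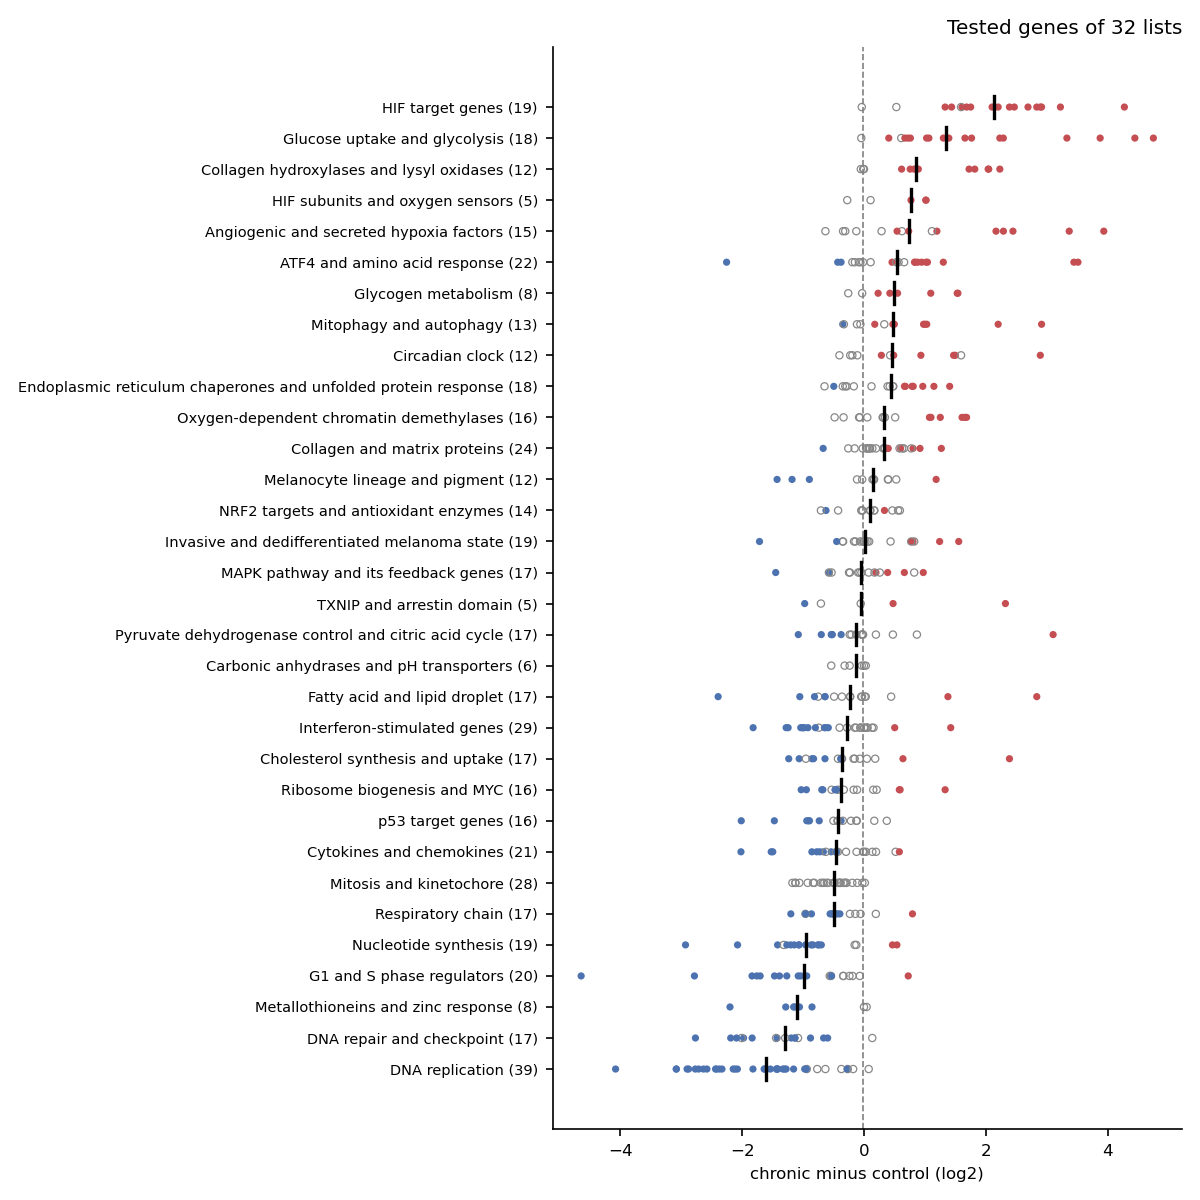
Log2 difference of chronic hypoxia minus control (x axis) for the tested genes of 32 lists, with the number tested in brackets. Filled points passed an adjusted p under 0.05 (red higher, blue lower), open points did not, black bars are the list medians and the dashed line is the median of all genes tested (-0.024). The highest median is that of the HIF target genes (2.14), several of which the paper had selected from these arrays, and the lowest that of DNA replication (-1.60).

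Inflammatory and interferon genes fell more often than they rose. Of 21 cytokine and chemokine genes 9 fell and 1 rose. CCL2, which draws monocytes, fell from 13.52, 13.52 and 13.18 to 11.99, 11.74 and 11.99 (by 1.5 on the log2 scale, SE 0.13, adjusted p = 0.00189), IL24 fell by 2.02 and LIF by 1.52. CXCL8, one of the brightest genes at 14.3, did not pass (-0.12), and OSMR was the riser (0.58). Of 29 interferon-stimulated genes 12 fell and 2 rose, at a median of -0.28. OAS1 (at least 1.45-fold lower), MX1 (-1.28) and IFI35 (-1.25) led the falls, and IRF7, a factor that induces interferon, rose from below the noise level to a mean near it. On control replicate 3 the list's mean was 6.40, against 6.76 and 6.74 on the other controls. The 12 falls became 3 without the variation filter, where the share of all genes that fell was not counted. Of 8 metallothionein and zinc genes 6 fell and none rose. MT1E, a metal-binding protein, fell from 9.80, 9.90 and 10.14 to 7.67, 7.66 and 7.92 (log2 difference -2.20, SE 0.12, adjusted p = 0.000834), and MT1X from 11.26, 11.21 and 11.76 to 9.96, 10.01 and 10.40 (-1.28, SE 0.20, adjusted p = 0.00876). The metallothionein genes are near copies and their probe sets can share transcripts, so they are not 6 separate readings. The zinc exporter SLC30A1 did not pass (0.04), and the 6 falls became 3 without the variation filter.

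Of 16 p53 target genes 7 fell and none rose. TP53I3 went from 7.44, 7.35 and 7.09 to 5.31, 5.20 and 5.32 and TIGAR, a brake on glycolysis, from between 8.89 and 9.01 to 7.57, 7.42 and 7.50, with adjusted p-values of 0.000813 and 0.00067. Lipid genes split. INSIG2, which holds back sterol synthesis, rose from 7.35, 7.41 and 7.45 to 9.70, 9.79 and 9.88, while 6 of 17 cholesterol genes fell, led by HMGCS1 (-1.24), FDPS (-1.06) and LSS (-0.86), and 2 rose. In the fatty acid list 5 of 17 fell and 2 rose. The elongase ELOVL6 fell by 2.39 and the carnitine transferase CPT1A by 1.05, and PLIN2, a coat of lipid droplets, rose by 1.38. Without the variation filter the falls became 2 in each of these lists. The chromatin demethylases, which use oxygen, rose in 6 of 16 genes and fell in none. KDM4B (1.68), TET1 (at least 1.87-fold, its control values being at noise) and KDM3A (1.61) led. Circadian genes rose in 6 of 12, led by RORA (at least 1.41-fold), DBP (1.5) and BHLHE41 (1.47). In ribosome biogenesis and MYC 6 of 16 fell and 3 rose, with RRS1 (-1.03) and NOP16 (-0.95) against MXI1 (1.33), an antagonist of MYC. Of 14 NRF2 targets and antioxidant enzymes 1 rose, NFE2L2 itself (0.34), and 1 fell, PRDX1 (-0.62). The rises were 0 without chronic replicate 1, 3 without chronic replicate 3 and 3 in the fit to all 27 arrays, where the falls were 3 as well. In the TXNIP and arrestin domain list 2 of 5 rose and 1 fell, with ARRDC3 (2.32) and ARRDC4 (-0.97) in opposite directions.

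The filter on variation was set over all 27 arrays, so genes that change in WM793B alone can be missed. Without it 1966 probe sets were called, and 171 of these lay outside the filter, 82 higher and 89 lower. Among those with 1 gene symbol, the largest fall was that of CXCL12, a chemokine that guides cells, at 5.94, 5.68 and 6.26 in the control and 2.39, 2.86 and 2.29 under hypoxia. It was at least 1.95-fold lower (log2 difference -3.45, adjusted p = 0.00614 without the filter). The glycolytic enzymes LDHA (0.63) and GAPDH (0.59), both above 13 in the control, also rose with an adjusted p of 0.0245 and 0.0159 in that fit. HMGB1, a chromatin protein, fell by 1.57 on its probe set with the largest change, to 10.57 and 10.47 on chronic replicates 1 and 2 and 11.35 on chronic replicate 3, from 12.23 to 12.47 in the control. HMGB1 was singled out after its values were seen.

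Where the response of WM793B differed from that of the other lines was tested as an interaction on 18 arrays. The response differed by at least 2-fold at an adjusted p under 0.05 in 3522 probe sets (17.8%) against PC-3 and in 4879 (24.7%) against SK-OV-3, and in 1176 (5.94%) from both in the same direction. Both differences use the same 6 WM793B arrays, so a deviation of 1 of these enters both. The lines also grew in different media and serum levels, so line and medium cannot be told apart in these differences. By genes the shares were 18% against PC-3 and 24.8% against SK-OV-3, and 2.21% of the genes responded higher and 3.92% lower in WM793B than in both lines. Among the genes called in WM793B, 99 rose with a response higher than in both lines, and 204 fell with a response lower than in both. These counts and shares include genes at the floor in the other lines, where the difference is only the change in WM793B. How many such genes there were was not counted.

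Among the genes called in WM793B, the 3 rises with the largest difference were SLC2A3, BANCR and TMEM225B. SLC2A3 rose from 6.31, 6.50 and 6.58 to 10.32, 10.49 and 10.20 in WM793B. In limma's fit to the 6 arrays its log2 difference was 3.88 (SE 0.11, adjusted p = 0.000402). It lay at the floor of 2.28 in both other lines, so the difference in response, also 3.88, is only the change in WM793B. BANCR, a long noncoding RNA first described in melanoma, rose from 4.87, 3.70 and 2.98 to 6.88, 6.74 and 7.26, at least 3.89-fold, and was near the floor in the other lines. TMEM225B read 2.39, 2.39 and 3.29 and then 6.08, 6.08 and 5.00. The 3 falls were PODXL, ICOS and MT1X. PODXL, a sialomucin of the cell surface, fell from 9.98, 9.81 and 9.02 to 7.90, 7.85 and 7.97 in WM793B (log2 difference -1.69, SE 0.27), while it rose in the others, by 2.43 (SE 0.17) in PC-3 and by 1.89 (SE 0.17) in SK-OV-3. The difference was -4.13 against PC-3 (adjusted p = 7.29e-09) and -3.58 against SK-OV-3 (adjusted p = 2.12e-08). MT1X, which fell by 1.28 here, rose by 1.65 in PC-3 and by 2.10 in SK-OV-3, and all 6 metallothionein genes that fell in WM793B responded lower than in both lines.

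**Figure D5:**
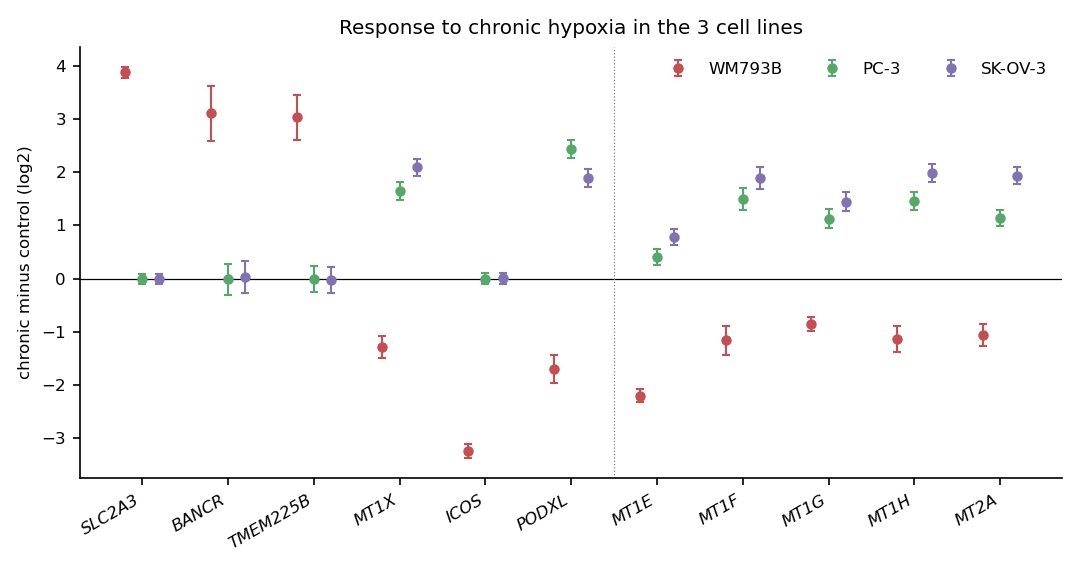
Log2 difference of chronic hypoxia minus control (y axis, bars are standard errors of the fits) in WM793B (red), PC-3 (green) and SK-OV-3 (purple), 3 against 3 arrays each. Left of the dotted line are the 6 genes, among those called in WM793B, whose response differed most from both lines, and right of it 5 further metallothioneins. The metallothioneins are below 0 in WM793B and above 0 in the other lines, while SLC2A3, BANCR, TMEM225B and ICOS are near 0 outside WM793B.

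HIF1A showed a difference of another kind. It did not pass in WM793B and fell by 1.15 in PC-3 (SE 0.08) and by 1.12 in SK-OV-3 (SE 0.08), and the response differed from both (adjusted p = 8.29e-07 and 6.08e-07). Of the 19 HIF target genes 2 responded lower in WM793B than in both lines and 0 higher, while 7 differed from PC-3 and 4 from SK-OV-3. The 2 were NDRG1, which rose by 1.44 against 3.85 in SK-OV-3 and 3.04 in PC-3, and CA12, which lay at noise in WM793B. In the glycolysis list PFKFB3 also rose less, by 0.76 against 3.06 and 2.71, in the same order of lines. The medians of the HIF target list were 2.14 in WM793B, 2.26 in SK-OV-3 and 1.75 in PC-3. CXCR4, the receptor of CXCL12, and ACKR3, its scavenging receptor, stayed between 2.28 and 2.33 on the 6 WM793B arrays, while they rose in both other lines.

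In replication the response of WM793B differed from SK-OV-3 in 32 of 39 genes and from PC-3 in 2, against 24.8% and 18% of all genes. The list medians were -1.60 in WM793B, 0.071 in SK-OV-3 and -1.22 in PC-3. Mitosis genes differed from SK-OV-3 in 24 of 28 and from PC-3 in none. Without chronic replicate 3 the replication genes that differed from PC-3 became 12 and the mitosis genes 9, and against SK-OV-3 they were 33 and 27. Of the cytokine genes 9 of 21 responded lower in WM793B than in both lines, CCL2, IL24, LIF and IL1B among them, and CXCR4 and ACKR3 are counted in that number. Without chronic replicate 3 it was 8 of 21. CCL2 and IL24 were at or near the floor in the other lines, so that only WM793B could show a fall, whereas LIF rose in SK-OV-3 (1.64, SE 0.20). The list medians were -0.45 in WM793B, 0.20 in SK-OV-3 and 1.32 in PC-3. Of the genes of the invasive state 5 of 19 responded lower, among them SOX2, which lay at the floor in the other lines, SNAI2 and CDH2. In the ATF4 list the response differed from PC-3 in 10 of 22 genes and from SK-OV-3 in 17, with medians of 0.55 in WM793B, -1.15 in SK-OV-3 and 1.52 in PC-3.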

How the data were processed

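Log2 expression values per probe set, as deposited, were made by the authors with GC-RMA (R package gcrma) from the scanned arrays. It corrects background by probe sequence and normalizes the arrays together. No genome build enters it. Members and gene lists were chosen with earlier results of these data known.

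Array control probe sets (9) were left out, and probe sets at least 1.5-fold from their median in at least 20% of the 27 arrays were kept. Symbols came from GEO's platform annotation: 41097 of 54675 probe sets had 1 symbol, 1801 several and 11777 none; 41043 matched RefSeq. A gene was read by its brightest filtered probe set. limma 3.58.1 (R 4.3.3) was fitted to the 6 arrays, with Benjamini-Hochberg adjustment over 19791 probe sets. Responses were compared between lines by an interaction on 18 arrays. Both fits were tested on simulated data. Calls used an adjusted p under 0.05, with a 2-fold change where stated. Alternatives were fold thresholds, no variation filter, dim probe sets left out, other normalizations, more arrays in the fit, a replicate block, limma's trend and robust options, and leaving out each array.

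Genes were named as the 12 largest rises and falls with values that did not overlap and a higher group above 5, the 3 largest changes each way in each list, fixed anchor genes, and the 6 largest differences from both other lines among genes called in WM793B. Other members named within a list were picked after their values were seen. List and anchor genes with no filtered probe set of 1 symbol were not tested in the main fit. Of the anchors, CA9, BRAF and BRCA2 had no probe set of 1 symbol at all. The number of arrays limits the precision.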

Additional observations from a re-analysis of the deposited data

Results flagged for a closer look

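The comparison of responses was marked for a closer look because effects of the same contrast differed between cell lines by a test of the difference. It covered 3522 probe sets against PC-3, 4879 against SK-OV-3 and 1176 against both in the same direction. The 6 genes named for it had differences in response (WM793B minus the other line, log2) as follows. SLC2A3 was 3.88 above both lines. BANCR was 3.12 above PC-3 and 3.08 above SK-OV-3. TMEM225B was 3.03 above PC-3 and 3.06 above SK-OV-3. PODXL was at -4.13 and -3.58, ICOS at -3.24 and -3.25, and MT1X at -2.93 and -3.38, in the same order of lines. Of the metallothionein list, 6 genes responded lower than in both lines. In SLC2A3, BANCR, TMEM225B and ICOS the other lines lay at or near the floor of the table, where no response can be read. With 3 arrays a group, single arrays were not tested as outliers.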

How the results depend on the processing

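Calls were counted again under each alternative. With a 1.5-fold threshold 5114 probe sets were called (2315 higher, 2799 lower), and with no fold threshold 7140 (3268 higher, 3872 lower). Under the other settings the 2455 calls ranged from 1908 without control replicate 1 to 2759 without chronic replicate 3, within 1.5 times of the reported number. Deviations of same-numbered arrays from their group means correlated at 0.055, -0.023 and 0.043 over the filtered probe sets. No pairing by replicate number was seen, but correlations over so many probe sets cannot exclude one. With the replicate block 2063 probe sets were called (968 higher, 1095 lower), and in the comparison of responses 3472, 4839 and 1153.

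Of the 136 genes that the naming rules chose, which leave out list members named after their values were seen, 131 passed. The rules largely fixed this, since all but the anchors were chosen for passing. All 131 kept their direction under every setting run. A block, other variance options, more arrays or no filter leave the log2 difference as it is and could not turn it. Where the groups do not overlap, leaving out an array could not either. Of the 131 genes, 88 also passed under every setting, and 89 under every setting other than leaving out an array. The genes that turned direction were AXL and SOX10, neither of which passed: AXL read -0.0029 with arrays centred on the median and from -0.075 to 0.065 when single arrays were left out (-0.036 without control replicate 2), and SOX10 from -0.13 to 0.11 (0.00069 without control replicate 2). The promoter shares for the 250 bases before the start only were 56.8% (ACGTG or GCGTG) in all genes, 60.5% in those called higher and 54.6% in those called lower, 8.71% (TTTGAA) in all genes and 3.62% (E2F letters) in all genes. The E2F letters then stood in 34.4% of the replication and 8.7% of the mitosis promoters. For TTTGAA these shares were 0% and 52.2%.

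The group counts that moved most were those of mitosis, replication and interferon genes, as given above. The number of arrays, 3 a group, limits the precision, and the values given as bounds rest on the noise level chosen.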
